A study of Mus musculus with 10 samples.

Results

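Cytochrome P450 genes were followed in mouse kidney across 2 kidney groups and 3 kinds of RNA. The genes were taken from the arrays' annotation by name: every probe set with a single symbol made of Cyp, a number, a letter and a number, leaving out Cyp27b1, Cyp24a1, Cyp27a1, Cyp4a10 and Cyp4a14. This gave 57 of 12394 genes with a single symbol, in 26 subfamilies, on 69 of the 22690 probe sets. A probe set was tested where its mean log2 signal over all 10 arrays lay above 5.27, the 40th percentile, which 13575 probe sets did. Of the P450 probe sets 28 passed, covering 25 genes of 14 subfamilies, and 41 did not.

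All mice were C57/BLACK6 males, 7 weeks old and weighing about 20 g. All had received 4-thiouridine (s4U) at 200 µM with 34 µCi of 3H-cytidine in 1 ml of saline into the peritoneum, given on 2 occasions. The contralateral group was the unclamped kidney of mice under diethylether whose left renal artery and vein had been closed for 45 min, with injections at 1 h and 2 h of reperfusion and removal at 3 h. Mice of the normal group had their injections at 0 h and 1 h, with removal of the kidneys at 2 h. No sham operation is described, so surgery, anaesthesia and the times of injection and removal cannot be told apart from the kidney group. Total RNA and amplified total RNA were each put on 2 arrays per kidney group, which the titles name as biological replicates. The fraction that carried s4U, called newly transcribed, was put on 1. The labelling protocol mentions linear amplification for every sample, so the preparations are told apart by the titles alone.

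P450 enzymes are heme proteins that insert oxygen into lipids, steroids and foreign compounds, using electrons passed on by a reductase or, in mitochondria, by ferredoxin. In kidney they are best known in the proximal tubule, where Cyp2c and Cyp2j enzymes turn arachidonic acid into epoxides and Cyp4 enzymes hydroxylate its far end, both giving lipids that act on vessel tone and salt transport. Cyp2d enzymes act on drugs and steroids, Cyp7b1 and Cyp39a1 on oxysterols, and Cyp1b1 on oestrogens and aromatic hydrocarbons, the latter being inducers of its gene through the aryl hydrocarbon receptor.

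The 250 bases before the start site are shown for 4 genes on which the results turn: Cyp1b1 and Cyp2j5, with the contralateral differences of smallest adjusted p, and Cyp2d9 and Cyp2d26, which belong to one chromosomal run of Cyp2d genes and had different profiles. They run 5′ to 3′ and come from RefSeq, build GRCm38.p6. They lie at chr17:79715062-79715311 on the minus strand for Cyp1b1, at chr4:96664120-96664369 on the minus strand for Cyp2j5, at chr15:82452127-82452376 on the plus strand for Cyp2d9 and at chr15:82794246-82794495 on the minus strand for Cyp2d26. Capitals mark matches, on either strand, to GCGTG (the core bound by the aryl hydrocarbon receptor), AGAACA (a steroid receptor half-site), AGGTCA (a nuclear receptor half-site) and TATAAA (the TATA box); no marked matches overlap in these 4 windows.
Cyp1b1: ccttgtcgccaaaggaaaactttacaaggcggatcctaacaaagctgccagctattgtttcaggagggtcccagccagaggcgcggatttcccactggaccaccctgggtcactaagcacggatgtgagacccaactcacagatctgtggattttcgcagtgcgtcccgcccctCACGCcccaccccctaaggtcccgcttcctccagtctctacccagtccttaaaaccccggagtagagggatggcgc
Cyp2j5: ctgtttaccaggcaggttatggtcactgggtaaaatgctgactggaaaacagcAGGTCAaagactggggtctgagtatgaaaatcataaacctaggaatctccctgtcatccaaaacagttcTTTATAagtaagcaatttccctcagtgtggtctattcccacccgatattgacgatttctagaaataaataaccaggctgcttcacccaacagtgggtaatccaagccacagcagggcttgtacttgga
Cyp2d9: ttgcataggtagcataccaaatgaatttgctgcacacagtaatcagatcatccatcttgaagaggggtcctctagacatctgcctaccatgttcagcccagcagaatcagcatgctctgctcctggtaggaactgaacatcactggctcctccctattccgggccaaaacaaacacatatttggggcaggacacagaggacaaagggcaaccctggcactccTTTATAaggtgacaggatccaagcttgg
Cyp2d26: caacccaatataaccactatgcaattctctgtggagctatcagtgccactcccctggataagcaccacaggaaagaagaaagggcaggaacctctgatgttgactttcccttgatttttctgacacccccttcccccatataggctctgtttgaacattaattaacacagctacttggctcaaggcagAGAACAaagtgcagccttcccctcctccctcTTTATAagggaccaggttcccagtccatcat

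The Cyp1b1 window holds a single match, the receptor core on the opposite strand 76 to 72 bases before the start. Cyp2d9 and Cyp2d26 each hold a TATAAA match close to the start, at 28 to 23 and 31 to 26 bases before it. Both lie on the opposite strand, so that the window reads TTTATA. Cyp2d26 also has an AGAACA at 62 to 57. The Cyp2j5 window has AGGTCA at 197 to 192 and TATAAA on the opposite strand at 128 to 123. Windows were found for 43 of the 57 genes, 50 windows in all. GCGTG was in 22% of these against 28.2% of all 32851 windows, AGAACA in 20% against 16.1%, AGGTCA in 26% against 14% and TATAAA in 34% against 12.4%. A match is a description of letters, and none was tested against the arrays.

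The arrays differed in ways that bear on all comparisons. Their median deposited intensity ran from 18.6 on the contralateral newly transcribed array to 70.3 on the normal one, so values were put on one distribution by quantile normalization of log2(intensity + 11.8). The ratio of 3′ to 5′ signal of the Gapdh control, which rises as RNA is shortened from its 5′ end, was 0.938 to 1.12 in total RNA, 4.21 to 6.23 in amplified RNA, 12.7 on the normal and 68.9 on the contralateral newly transcribed array. Replicate arrays correlated at 0.978 to 0.989 across the tested probe sets, which are not independent replicates. All 10 proximal tubule markers measured passed the filter, as did all 4 of the thick limb and distal tubule, so the label of kidney holds. All levels below are normalized log2 signals, and the arrays give no level of one probe set against another's.

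Subfamilies with at least one probe set past the filter were Cyp1b, 2c, 2d, 2e, 2f, 2j, 2s, 4a, 4b, 4f, 4v, 7b, 21a and 39a. Cyp2j passed with all 5 of its probe sets, for 4 genes, Cyp2d with 6 of 9 and Cyp2c with 4 of 11. The subfamilies Cyp1a, 2a, 2b, 2g, 3a, 7a, 8b, 11a, 11b, 17a, 26a and 46a had none past it. These hold the drug-inducible enzymes of liver (Cyp1a, Cyp2b and Cyp3a), the bile acid enzymes Cyp7a1 and Cyp8b1 and the adrenal and gonadal steroid enzymes Cyp11a1, Cyp11b2 and Cyp17a1. The filter is no test of expression, since the files carry no detection calls. The means of the probe sets on either side of it were 5.25 and 5.35, the latter being that of Cyp2c29.

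Several brightly measured genes stayed within a narrow range over all 6 groups. Cyp2e1 (1415994_at), which oxidises ethanol and small solvents, read 11.44 and 11.40 in normal and 11.55 and 11.52 in contralateral total RNA. In amplified RNA it read 11.25 and 11.16 in normal and 11.23 and 11.23 in contralateral kidney, and in newly transcribed RNA 11.24 and 11.65. Its 6 group means spanned 0.44, and no comparison passed in the fits reported. Without either newly transcribed array it was lower in amplified than in total RNA (-0.26 and -0.25, adjusted p = 0.00265 and 0.0026, limma). Averages of the group means, in place of an additive fit, put it at 0.18 for contralateral minus normal, -0.26 for amplified minus total and 0.22 for newly transcribed minus amplified RNA (adjusted p = 0.0149, 0.00168 and 0.0148, limma). Cyp4b1 (1416194_at), a fatty acid and protoxin oxidase, spanned 0.48, from 11.95 and 11.91 in normal total RNA to 11.45 on the normal newly transcribed array. One of the Cyp2j5 probe sets (1417531_at) spanned 0.43. The widest spans were 2.73 for the other Cyp2j5 probe set, 2.35 for Cyp2d9, 2.09 for Cyp7b1 (1421074_at), 1.86 for Cyp2d26 and 1.85 for Cyp4f13.

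In total RNA, no P450 probe set passed the test between contralateral and normal kidney. Of 28 tested, 0 were higher and 0 lower at an adjusted p under 0.05 (limma, Benjamini-Hochberg over all tested probe sets), where 1.58% of all probe sets were higher and 0.339% lower. At an unadjusted p under 0.05 there were 4, and the share of all tested probe sets under that threshold is not given here. The median difference was -0.010 against -0.016 over all tested. The 4 with the smallest p, none of which passed, were Cyp2d9, Cyp2d22 (1419040_at), Cyp2j9 and Cyp39a1. Cyp2d9 (1419349_a_at), a testosterone hydroxylase of male mouse liver and kidney, read 8.17 and 8.40 in normal and 8.80 and 8.78 in contralateral kidney, a difference of 0.50 ± 0.13 (limma's standard error, as throughout; adjusted p = 0.101). Its groups did not overlap. Cyp2d22 gave 0.45 ± 0.17, Cyp2j9 0.41 ± 0.18 and Cyp39a1 0.43 ± 0.19, with adjusted p of 0.252, 0.31 and 0.325.

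In amplified total RNA 7 probe sets passed, 5 higher and 2 lower in the contralateral kidney. That is 17.9% and 7.14% of the 28, beside 4.16% and 6.19% of all tested probe sets. The rises were Cyp1b1, Cyp2d22, Cyp2d9, Cyp2j9 and Cyp4a31, and the falls one probe set each of Cyp2j5 and Cyp7b1. The remaining 21 did not pass, and the median difference was 0.10 against 0.022 over all tested.

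Cyp1b1 (1416612_at) read 8.17 and 8.01 in normal and 9.27 and 9.20 in contralateral amplified RNA. It rose by 1.15 ± 0.13, or 2.22-fold (adjusted p = 0.000411, limma), with a gap between the groups far wider than the spread within them. In total RNA the same probe set read 7.97 and 8.27 against 8.32 and 8.46, a difference of 0.27 ± 0.13 that did not pass. The difference between these effects was 0.88 ± 0.19 (adjusted p = 0.0226, limma). It did not pass without either normal amplified array (0.96 and 0.80, adjusted p = 0.0607 and 0.127), without normal total replicate 2 (0.73, 0.115) or without contralateral total replicate 1 (0.81, 0.0942). The newly transcribed arrays read 8.13 and 8.73. The other Cyp1b1 probe sets were dim, under the filter and so not tested, and did not share this pattern. In amplified RNA 1416613_at read 4.82 and 5.10 in normal and 5.06 and 5.32 in contralateral kidney, with overlap, and 1432081_at 5.06 and 4.77 against 4.35 and 4.84. In total RNA 1416613_at read 5.03 and 5.09 against 5.34 and 5.44, and 1432081_at went the other way, 5.05 and 4.73 against 4.37 and 4.38.

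The Cyp2d genes were higher in the contralateral kidney in part. Cyp2d9 read 8.44 and 8.72 in normal and 9.43 and 9.23 in contralateral amplified RNA and rose by 0.74 ± 0.13 (adjusted p = 0.00536, limma). Cyp2d22, another drug- and steroid-metabolising member, read 6.58 and 6.51 against 7.48 and 7.35 on 1419039_at and rose by 0.87 ± 0.20 (adjusted p = 0.0166, limma). Its second probe set, 1419040_at, differed by 0.52 ± 0.17 and did not pass (0.0845). Neither pair of groups overlapped. Cyp2d12 (-0.07), Cyp2d13 (0.08) and Cyp2d26 (-0.30 ± 0.16) did not pass. Without contralateral amplified replicate 2, Cyp2d26 differed by -0.55 and did pass, in the direction opposite to Cyp2d9 and Cyp2d22. That fit kept a single contralateral amplified array. Members of this subfamily are close in sequence and lie close together, 6 of them in one run of the RefSeq gene order, and a probe set may read more than one of them.

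Among the arachidonic acid epoxygenases the Cyp2j genes moved in both directions. Cyp2j9 (1424677_at) read 5.61 and 5.82 in normal and 6.27 and 6.43 in contralateral amplified RNA and rose by 0.63 ± 0.18 (adjusted p = 0.0446, limma). Cyp2j5, an abundant epoxygenase of mouse kidney, gave 2 unlike readings. Its probe set 1417532_at read 8.71 and 8.65 in normal and 7.74 and 7.34 in contralateral amplified RNA and fell by 1.14 ± 0.14, or 2.20-fold (adjusted p = 0.000582, limma). The other, 1417531_at, read 11.38 and 11.32 against 11.15 and 11.27, a difference of -0.14 ± 0.09 (adjusted p = 0.381).

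In total RNA the 2 Cyp2j5 probe sets kept together: 1417532_at read 9.12 and 9.06 in normal and 9.13 and 9.27 in contralateral kidney and 1417531_at 11.17 and 10.98 against 11.09 and 11.06. The contralateral effect on 1417532_at in amplified minus that in total RNA was -1.25 ± 0.20 (adjusted p = 0.00488, limma), and on 1417531_at it was -0.14 ± 0.13. On the newly transcribed arrays 1417532_at read 8.53 in normal and 6.47 in contralateral kidney, while 1417531_at read 10.93 and 11.00. Over the arrays, 1417532_at was lowest on the contralateral newly transcribed array, which also has the highest Gapdh 3′/5′ ratio, 68.9. The normal newly transcribed array, with a ratio of 12.7, read 8.53. Amplified arrays read 8.71 and 8.65 in normal kidney (ratios of 5.29 and 4.21) and 7.74 and 7.34 in contralateral kidney (6.23 and 4.39). Total arrays read 9.06 to 9.27, at ratios of 0.938 to 1.12. The part of this ratio in the result was not tested. Cyp2j6 (0.51 ± 0.27) and Cyp2j13 (-0.01 ± 0.15) did not pass in amplified RNA.

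Of the Cyp2c epoxygenases and their relatives, 4 were tested and none passed. Cyp2c23 (1424576_s_at), an epoxygenase of the renal tubule, differed by -0.23 ± 0.15, Cyp2c38 by 0.57 ± 0.29, Cyp2c29 by 0.25 ± 0.35 and Cyp2c70 by 0.05 ± 0.19. Cyp4a31 (1424943_at), one of the Cyp4a fatty acid hydroxylases, read 6.52 and 6.44 in normal and 7.09 and 7.02 in contralateral amplified RNA and rose by 0.58 ± 0.16 (adjusted p = 0.0467, limma). It lies near Cyp4b1 in the RefSeq order, with 1 protein-coding gene between them, and Cyp4b1 differed by -0.07 ± 0.07. Cyp4f13 gave 0.26 ± 0.18, Cyp4f16 -0.10 ± 0.20 and Cyp4v3 0.16 ± 0.27. Dim second probe sets under the filter, not tested, differed by 0.30 for Cyp4f16, 0.37 for Cyp4v3 and -0.44 for Cyp2d13.

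Cyp7b1, an oxysterol hydroxylase, fell on one of its 2 probe sets. On 1421074_at it read 10.79 and 10.62 in normal and 10.05 and 10.13 in contralateral amplified RNA, a fall of 0.61 ± 0.17 (adjusted p = 0.0428, limma). On 1421075_s_at it read 11.18 and 10.47 against 10.97 and 10.31, with overlapping groups and a difference of -0.18 ± 0.26. Cyp39a1, which acts on another oxysterol, and Cyp21a1, the steroid hydroxylase of the adrenal cortex, did not pass, at -0.29 ± 0.19 and 0.42 ± 0.30. A dim second probe set of Cyp21a1 (1422333_at), under the filter and not tested, was lower without overlap, at 4.93 and 5.05 in normal against 4.85 and 4.71 in contralateral amplified RNA and at 5.01 and 4.55 against 4.51 and 3.91 in total RNA. Cyp2e1, Cyp2f2 and Cyp2s1 differed by 0.02, 0.14 and 0.13.

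Cyp1b1 and Cyp2j5 (1417532_at) passed in each of the 10 fits that left out a single array. Cyp2d9 lost the call without normal amplified replicate 1 (0.60, adjusted p = 0.0725). Cyp2d22 lost it without that array (0.90, 0.0874), without normal amplified replicate 2 (0.83, 0.125) and without contralateral amplified replicate 1 (0.80, 0.0782). Cyp4a31 and Cyp7b1 each passed in 4 of the 10 fits and Cyp2j9 in 2. These 3 calls also ended under other settings. Without the filter or without the intensity trend, Cyp7b1 was at adjusted p = 0.0987 and 0.101 and Cyp4a31 at 0.0885 and 0.0578, and with median centring they were at 0.104 and 0.0583 (limma). Cyp7b1 was at 0.0562 when normalized within preparations, and Cyp4a31 at 0.0541 with the replicate number as a fixed block. Cyp2j9 was at 0.101 without the filter, 0.0548 with that block, 0.0696 from the 4 amplified arrays alone and 0.052 with an offset of 1. The count of 7 fell to 2 without normal amplified replicate 1, to 3 without normal amplified replicate 2 or contralateral amplified replicate 1, and to 4 without either contralateral total array. Of the 33 cell type markers tested, 1 rose in contralateral amplified RNA, Scnn1g of the collecting duct by 0.47, and 1 fell, the proximal tubule's Lrp2 by 0.59; in total RNA none passed in either direction.

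**Figure D1:**
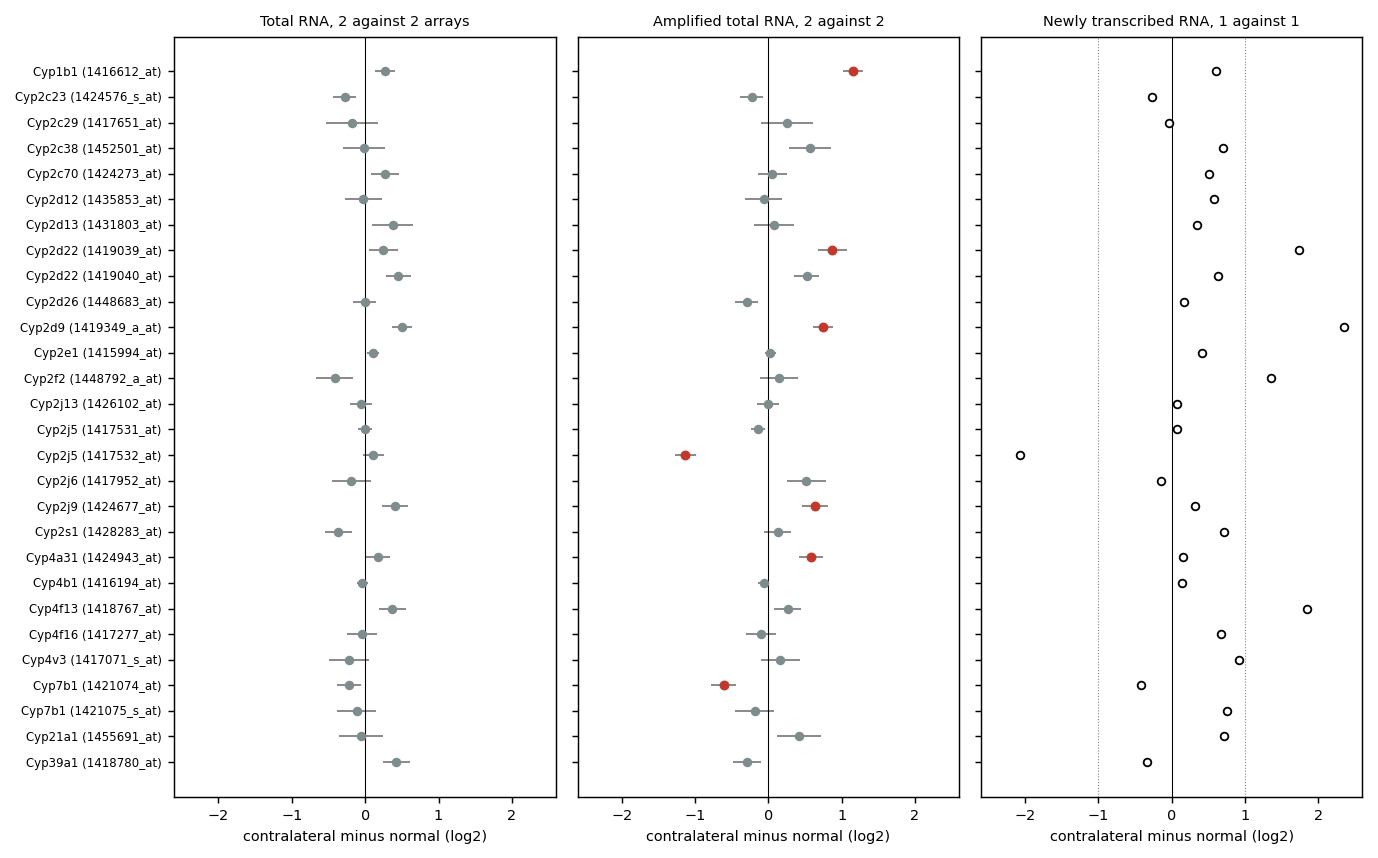
Contralateral minus normal kidney on the log2 scale for the 28 P450 probe sets that were tested, in total RNA (left), amplified total RNA (middle) and newly transcribed RNA (right). Filled points are limma estimates with bars of 1 standard error, red where the adjusted p was under 0.05; open points are differences between single arrays with no error, and dotted lines mark a 2-fold difference. The 7 red points are all in amplified RNA, and Cyp2j5 (1417532_at) is the one open point beyond the lower line.

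In newly transcribed RNA each kidney group had 1 array, so the difference has no replicate check and no test. More than 2-fold higher on the contralateral array were 4 probe sets, or 14.3% of the 28, beside 14.3% of all tested probe sets. A single one was more than 2-fold lower, or 3.57%, beside 18.5%. The median difference was 0.46 against -0.00015 over all tested, and 22 of the 28 lay above 0. With arrays centred on their medians in place of quantile normalization, the median was 0.39 against -0.21 over all tested, and the split of all probe sets past 2-fold went from 43.6% to 28.0% higher.

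The largest of these differences was that of Cyp2d9, which read 7.88 on the normal and 10.22 on the contralateral array, a difference of 2.35. Cyp4f13, a fatty acid hydroxylase, read 5.63 and 7.48, Cyp2d22 (1419039_at) 6.01 and 7.75, and Cyp2f2, known for activating naphthalene in lung, 4.81 and 6.16. Cyp2d9, Cyp2d22 and Cyp4f13 lay above their normal group in amplified RNA too, without overlap, whereas Cyp2f2 overlapped in both total and amplified RNA. The probe set lower by more than 2-fold was Cyp2j5 1417532_at, at -2.06. Cyp4v3, Cyp2s1, Cyp21a1 and Cyp2c38 followed on the higher side with 0.91, 0.71, 0.71 and 0.70. Cyp4v3 (1417071_s_at), a fatty acid hydroxylase, read 6.20 and 7.11, and Cyp2s1 (1428283_at), an enzyme of epithelia outside the liver, 6.90 and 7.61. In total RNA Cyp4v3 and Cyp2s1 went the other way without overlap and without passing, at -0.22 and -0.37. Cyp2f2 was at -0.42 there, also without passing.

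Markers of other cell types moved on this pair of arrays as well. Both adipocyte markers measured, Adipoq and Fabp4, were higher on the contralateral newly transcribed array, by 2.04 and 1.78. Of 5 adrenal cortex markers 4 were higher, Star by 1.47, Mc2r by 1.44, Nr5a1 by 1.31 and Scarb1 by 0.95. Hsd3b1 differed by -0.22. Mc2r, Nr5a1 and Hsd3b1 were dim and under the filter. Before scaling the normal and contralateral arrays read 33.3 and 34.8 for Star, 95.5 and 50.4 for Scarb1, 19.4 and 24 for Mc2r. Nr5a1 read 5 and 12 and Hsd3b1 25.4 and 6.2, with array medians of 70.3 and 18.6. The mean of the adrenal list was 4.92 on the normal and 5.91 on the contralateral array, and that of the adipocyte list 6.83 and 8.74, with 7.44 to 8.65 on the other 8 arrays. Among 10 proximal tubule markers 3 were more than 2-fold lower, and their mean was 10.32 and 9.67. The adrenal list's mean ran from 4.87 to 5.47 on the other 8 arrays. The part of these cells in the P450 differences was not tested. In whole kidney, fewer cells of a type and less RNA per cell cannot be told apart.

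Over all preparations together, 0 P450 probe sets passed in either direction, beside 0.383% of all probe sets higher and 0.0589% lower. At an unadjusted p under 0.05 there were 9 of the 28, again without the share of all tested probe sets at hand. The median difference was 0.12 against -0.0048 over all tested, with 20 above 0. The smallest p belonged to Cyp2d22 (1419040_at, 0.51 ± 0.12), Cyp1b1 (0.69 ± 0.17), Cyp2d9 (0.97 ± 0.25) and Cyp2j9 (0.48 ± 0.12), with adjusted p from 0.116 to 0.139 (limma), none of which passed. On each of these probe sets both contralateral arrays of total and of amplified RNA lay above both normal ones. They were chosen by the p-value of this same difference, so this order adds no support. Cyp2d9 passed without the normal newly transcribed array (0.63, adjusted p = 0.0128), without the contralateral one (0.62, 0.0146) and without both (0.63, 0.0138). This additive fit holds the effect equal in all preparations. Averaging the effects of the 3 preparations instead gave 10 probe sets that passed, 8 higher and 2 lower (the latter Cyp2j5 1417532_at at -1.03 and Cyp7b1 1421074_at at -0.42), with the lone arrays assumed to vary like the other groups. Under that fit 20.7% of all tested probe sets were higher and 23.9% lower. With kidney and replicate number as a random block 8 passed, 6 higher and 2 lower, beside 3.88% and 3.85% of all tested. The block correlation in that fit was -0.23, and a negative value narrows the standard error of the kidney difference.

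The contralateral effect itself differed between amplified and total RNA for 2 of the 28 probe sets. Cyp1b1 was higher (1 probe set, beside 0.648% of all tested) and Cyp2j5 1417532_at lower (1, beside 3.81%), with the values given above. Next in p, without passing, were Cyp39a1 at -0.72 ± 0.27 and Cyp2d22 (1419039_at) at 0.63 ± 0.28, with adjusted p of 0.185 and 0.27 (limma). Cyp39a1 read 5.16 and 5.05 in normal and 5.64 and 5.41 in contralateral total RNA, but 6.90 and 6.87 against 6.77 and 6.42 in amplified RNA, so that its groups were ordered one way in the first and the other way in the second.

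**Figure D2:**
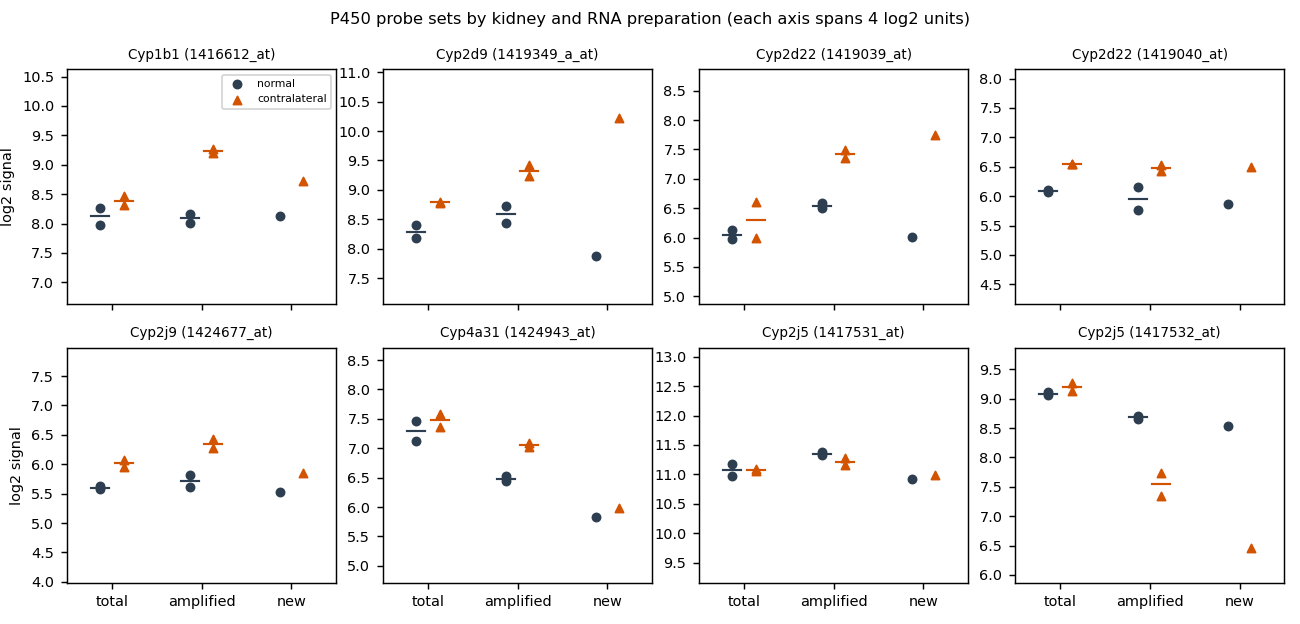
Normalized log2 signal of 8 P450 probe sets on each array, by RNA preparation along the horizontal axis; dark circles are normal and orange triangles contralateral kidneys, and bars are means of 2 arrays. Each vertical axis spans 4 log2 units around the probe set's own signal. The contralateral amplified arrays of Cyp1b1 (9.27 and 9.20) stand above all others of that gene, and the 2 probe sets of Cyp2j5 part in amplified and newly transcribed RNA.

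Between amplified and total RNA, 8 of the 28 probe sets differed, with kidney as a term in the fit. Higher in amplified RNA were 5 (17.9%, beside 20.8% of all tested) and lower 3 (10.7%, beside 17.6%). The median difference was 0.098 against 0.044. The 2 oxysterol hydroxylases were the most raised. Cyp7b1 rose on both probe sets, by 1.44 ± 0.25 on 1421075_s_at and by 0.66 ± 0.16 on 1421074_at, and Cyp39a1 (1418780_at) by 1.43 ± 0.19 (adjusted p = 0.00144, 0.00867 and 0.000382, limma). All 4 amplified arrays of Cyp39a1 lay between 6.42 and 6.90 and all 4 total arrays between 5.05 and 5.64. Cyp21a1 (1455691_at) read 5.15, 5.67, 5.76 and 4.95 in total and 6.02, 6.11, 6.83 and 6.13 in amplified RNA. It rose by 0.89 ± 0.25, and Cyp2d22 (1419039_at) rose by 0.81 ± 0.25. The second Cyp2d22 probe set, 1419040_at, did not pass, with amplified minus total at -0.13 in normal and -0.06 in contralateral kidney.

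The falls were Cyp2j5 1417532_at (1.03 ± 0.32, with amplified minus total at -0.41 in normal and -1.65 in contralateral kidney), Cyp2d26 (0.72 ± 0.16) and Cyp4a31 (0.62 ± 0.15), with adjusted p of 0.0288, 0.00544 and 0.0101 (limma). Cyp2d26 (1448683_at) read 9.91, 9.75, 9.93 and 9.71 in total and 9.24, 9.26, 8.70 and 9.22 in amplified RNA, with no overlap. The other Cyp2j5 probe set, 1417531_at, went the other way without passing, with amplified minus total at 0.28 in normal and 0.14 in contralateral kidney. It passed without the newly transcribed arrays (0.20, adjusted p = 0.0252, limma). The split depended on the scaling. Centring arrays on their medians gave 8 higher and 1 lower, and normalizing within each preparation 7 and 1, as the median of all tested probe sets moved from 0.044 to 0.17 under either. Among all tested probe sets that passed, 54.1% were higher with the scaling used here, 66.7% with median centring and 67.6% within preparations. The fall of Cyp2d26 became 0.42 and 0.41, and that of Cyp2j5 0.76 under both, none of which passed. The Cyp2j5 call was also lost without any 1 of the amplified or contralateral total arrays (-1.10 to -0.82, adjusted p 0.0505 to 0.0893). The Cyp2d22 call was lost without any 1 of the same 6 arrays (0.59 to 0.83, adjusted p 0.0549 to 0.0734). Cyp21a1 lost its call without contralateral amplified replicate 1 (0.73, 0.0598) or normal total replicate 1 (0.86, 0.0504). The count fell to 5 without contralateral amplified replicate 1. The Gapdh 3′/5′ ratio moves with this comparison, and its part was not tested.

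In newly transcribed against amplified total RNA, 8 P450 probe sets of 7 genes were lower and 0 higher. These are 28.6% and 0% of the 28, beside 16.7% and 11.9% of all tested probe sets. The median difference was -0.26 against -0.0092, and 7 of the 28 lay above 0. Each kind of newly transcribed RNA is a single array, set here against 2 amplified arrays of each kidney. With median centring the split of all probe sets that passed went from 41.5% to 29.0% higher, and within preparations to 29.5%; for the P450 genes it was 0 higher and 8 lower, and 0 and 9.

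Cyp7b1 was lowered most, by 1.58 ± 0.19 on 1421074_at and 1.13 ± 0.30 on 1421075_s_at (adjusted p = 0.000521 and 0.0195, limma). On the first it read 10.79, 10.62, 10.05 and 10.13 in amplified RNA and 9.03 and 8.61 on the newly transcribed arrays, so that the groups did not overlap. The epoxygenase relative Cyp2j13 (1426102_at) read 9.01, 9.09, 8.80 and 9.28 in amplified RNA and 7.64 and 7.71 in newly transcribed RNA, a fall of 1.37 ± 0.17, or 2.58-fold. Its total RNA read 8.90 to 9.07, so these were its 2 lowest arrays.

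Cyp39a1 fell by 1.22 ± 0.23, Cyp2d26 by 1.05 ± 0.19, Cyp4a31 by 0.86 ± 0.19, Cyp2c23 by 0.79 ± 0.17 and Cyp4b1 by 0.31 ± 0.10, with adjusted p from 0.00322 to 0.0453 (limma). Cyp2c23 read 7.87, 7.75, 7.64 and 7.52 in amplified and 7.04 and 6.77 in newly transcribed RNA, without overlap. All 8 probe sets were lower in both kidneys taken apart, for example Cyp2d26 by -1.28 in normal and -0.82 in contralateral kidney. Cyp4b1 passed in 1 of 10 fits that left out an array, that without the contralateral newly transcribed one. Cyp7b1 (1421075_s_at) did not pass without the normal newly transcribed array (-0.70, adjusted p = 0.0991) or contralateral amplified replicate 1 (-1.04, 0.0527). Without the normal newly transcribed array, Cyp2d9 (0.98), Cyp4f13 (0.97) and Cyp2e1 (0.40) were among the higher probe sets, while the 8 above kept a negative difference. Without the contralateral one Cyp2d9 was instead lower, by -0.77 (adjusted p = 0.00543, limma), so its direction turned with the array kept. Some members went opposite ways in the 2 kidneys, a difference not tested here: Cyp2d9 differed by -0.71 in normal and 0.90 in contralateral kidney, and Cyp4f13 by -0.59 and 1.00.

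Markers of the tubule and of vessels were lower in the same comparison. Of 10 proximal tubule markers 8 fell and 0 rose, with a median of -0.81, and of 4 endothelial markers 3 fell. Aqp1 and Slc34a1 were the 2 proximal markers that did not pass, at 0.02 and -0.36. The mean of the proximal list ran from 10.73 to 10.85 on the amplified arrays and was 10.32 and 9.67 on the newly transcribed ones. The part of cell makeup, of RNA turnover and of the Gapdh 3′/5′ ratio in the P450 differences was not tested.

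**Figure D3:**
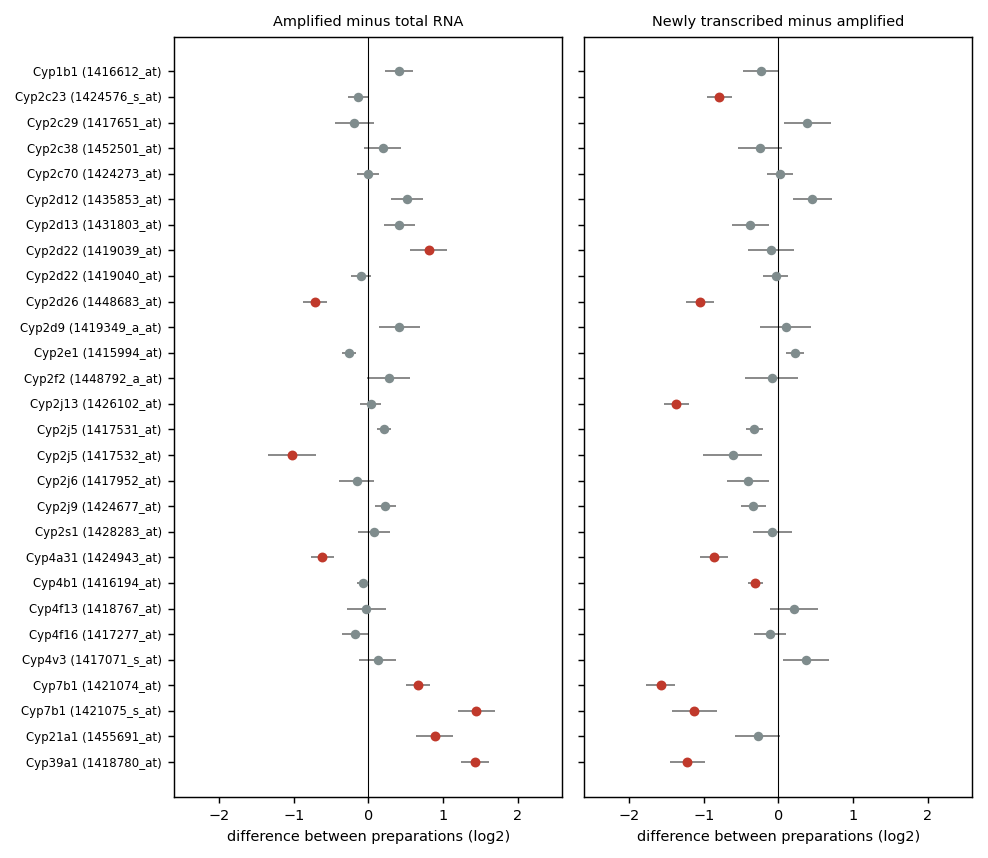
Differences between RNA preparations on the log2 scale for the 28 tested P450 probe sets, with kidney as a term in the fit: amplified minus total RNA (left) and newly transcribed minus amplified total RNA (right). Points are limma estimates with bars of 1 standard error, red where the adjusted p was under 0.05. Red points lie on both sides of 0 on the left (5 and 3) and below it on the right (8).

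**Figure D4:**
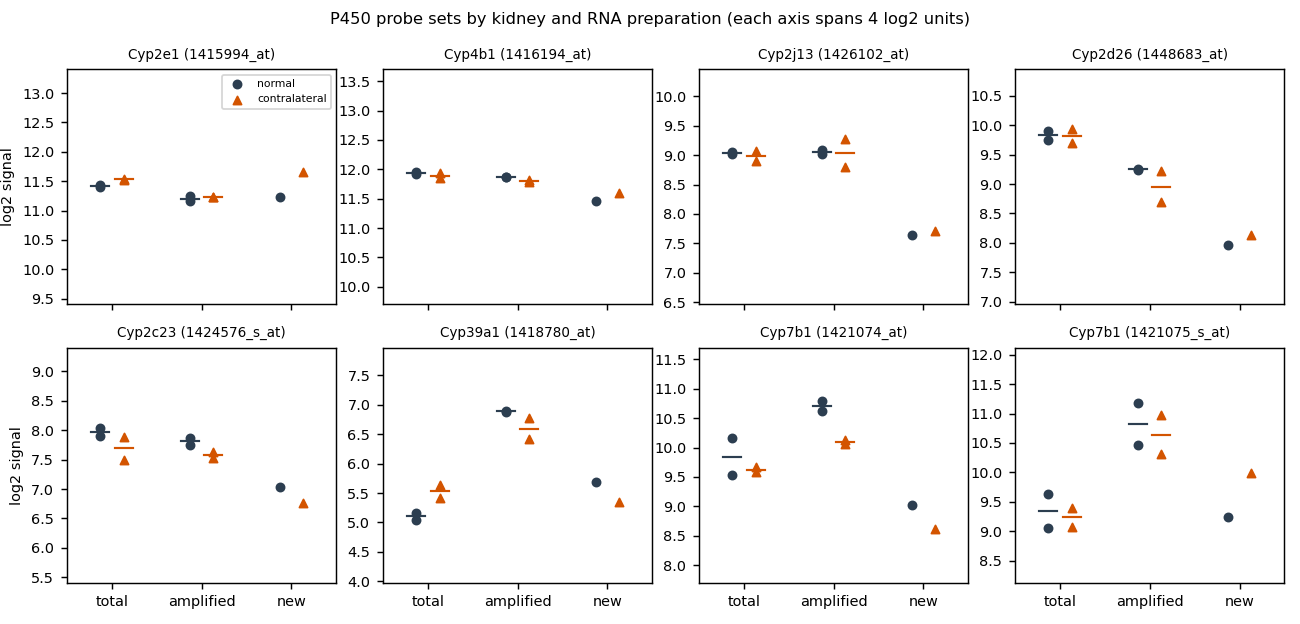
Normalized log2 signal of 8 P450 probe sets on each array, by RNA preparation; dark circles are normal and orange triangles contralateral kidneys, and bars are means of 2 arrays. Each vertical axis spans 4 log2 units. Cyp2e1 and Cyp4b1 keep to a narrow range, Cyp2j13 and Cyp2d26 are lowest on the newly transcribed arrays, and Cyp39a1 and Cyp7b1 peak in amplified RNA.

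Genes that serve or control P450 enzymes were listed apart from the P450 genes, 30 in all, of which 26 were measured and 21 tested. In the contralateral kidney 3 of the 21 were higher in total RNA and 0 lower, beside 1.58% and 0.339% of all tested probe sets. Heme oxygenase Hmox1, which breaks down heme, read 6.06 and 6.69 in normal and 9.61 and 9.56 in contralateral total RNA, a rise of 3.21 ± 0.30. The fatty acid receptor Ppara, a regulator of Cyp4a genes, rose by 1.04 ± 0.17 and the bile acid receptor Nr1h4 by 0.76 ± 0.13. In amplified RNA 3 were higher and 1 lower, beside 4.16% and 6.19% of all tested: Hmox1 by 1.35, Nr1h4 by 0.83 ± 0.13 and the aryl hydrocarbon receptor Ahr, which controls Cyp1b1, by 0.80 ± 0.17 rose, and Ppara fell by 1.00 ± 0.17.

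The preparations also differed in the contralateral effect on some of these genes. Ahr read 5.89 and 5.84 in normal and 6.77 and 6.55 in contralateral amplified RNA, but 6.19 and 6.30 against 5.98 and 6.22 in total RNA, and its effect was larger in amplified RNA by 0.94 ± 0.24 (adjusted p = 0.047, limma). Ppara read 7.39 and 7.47 against 8.65 and 8.28 in total RNA and 5.99 and 5.97 against 4.98 and 4.98 in amplified RNA, a difference of effects of -2.04 ± 0.24. Hmox1 was the third, at -1.86 ± 0.42.

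Between preparations, 3 of the 21 were higher and 3 lower in amplified than in total RNA, beside 20.8% and 17.6% of all tested probe sets. In newly transcribed against amplified RNA 4 were higher and 4 lower, beside 11.9% and 16.7%. The epoxide hydrolases, which convert the epoxides made by Cyp2c and Cyp2j enzymes, both fell in newly transcribed RNA, Ephx2 by 0.98 ± 0.14 and Ephx1 by 0.75 ± 0.17, as did Alad of heme synthesis (0.77) and the sterol demethylase Cyp51 (0.72). The glucocorticoid receptor Nr3c1 (1.07 ± 0.35), the hepatocyte nuclear factor Hnf4a (0.76 ± 0.12), cytochrome b5 of mitochondria Cyb5b (0.48) and its reductase Cyb5r3 (0.52) rose. For Nr3c1 the difference lay on the normal array, which read 9.89 against 7.86 and 7.99 in amplified RNA, while the contralateral one read 7.74 against 7.71 and 7.41. Over all preparations Hmox1 was the single one to differ, by 2.37. The receptors Nr1i2 and Nr1i3, which control Cyp2b and Cyp3a genes, and Arnt, the partner of Ahr, were under the filter.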

How the data were processed

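One-colour Affymetrix arrays measured RNA of mouse kidneys, 10 arrays in 6 groups. Each value deposited by the authors is a linear signal intensity. How probes were summarised and scaled is not given in the sources used here. Per the labels, RNA was isolated on columns and labelled by a T7-based method.

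Intensities were transformed as log2(intensity + 11.8), the 25th percentile of all values, and quantile normalized. After 64 control probe sets were set aside, probe sets above the 40th percentile of mean signal were tested (13575). The offset shrinks log2 differences of dim genes. Symbols came from the platform annotation (20393 probe sets with 1 symbol, 691 with several, 1606 unlisted), and those of the 69 P450 probe sets were checked by Entrez number against RefSeq, with 0 changed. Near-identical genes can share a probe set's signal.

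Fits used limma 3.58.1 in R 4.3.3 (lmFit, eBayes with an intensity trend) on all 10 arrays, with Benjamini-Hochberg adjustment at 0.05. An additive model of kidney and preparation gave the pooled contralateral effect and the differences between preparations (6 residual degrees of freedom), and a model of 6 group means gave the effects within a preparation and their difference (4 residual degrees of freedom). The fits were run on simulated data with independent arrays of equal spread. That setting cannot show the effect of shared mice or of unequal arrays. P-values measure the spread between these arrays, and their small number limits the precision. If equal replicate numbers mark the same mouse, fits over several preparations count that mouse more than once.

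The P450 genes, the lists of partner and marker genes and the tests were chosen with earlier results of these data known. Named with values were, per comparison, each probe set that passed, filled to 4 by the smallest p where fewer passed, and per subfamily the one whose group means spanned the widest range. A gene is represented by its brightest probe set, others being given where they disagree, with those under the filter untested. Some listed partner and marker genes were not analysed here. Alternatives were another offset, scaling, filter, variance model or design, replicate blocks and leaving out each array.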

Additional observations from a re-analysis of the deposited data

Results flagged for a closer look

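For 2 P450 probe sets the contralateral effect differed between RNA preparations by the test of the difference itself (limma, adjusted over 13575 probe sets). Cyp1b1 (1416612_at) had a contralateral effect larger by 0.88 ± 0.19 in amplified than in total RNA (adjusted p = 0.0226), with the 2 contralateral amplified arrays above every other array of that probe set. Cyp2j5 (1417532_at) had one that was lower there, with a difference of -1.25 ± 0.20 (adjusted p = 0.00488), and its second probe set 1417531_at differed by -0.14 ± 0.13. The causes were not tested.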

How the results depend on the processing

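Of 282 recomputed counts and medians 218 kept within 1.5 times the count, or within 0.041 (the spread between replicates) of the median, and 64 moved. No probe set changed direction in a comparison for which it was named. Cyp2d9, not named for newly transcribed against amplified RNA, was 0.98 there with the contralateral newly transcribed array alone and -0.77 with the normal one alone. The cause was not tested where a value moved, beyond what each setting changes. The median in newly transcribed contralateral against normal kidney was 0.55 with an offset of 1, 0.34 with an offset at the median, 0.39 with median centring, 0.15 without the filter and 0.16 with the filter at the 60th percentile. For newly transcribed against amplified RNA it was -0.21 with the offset at the median, -0.38 with median centring, -0.33 within preparations, -0.038 without the filter and -0.32 at the 60th percentile. For amplified against total RNA it was 0.24 with median centring (0.243) and within preparations (0.242), and 0.033 at the 60th percentile. For the contralateral effect over all preparations it was 0.076 without the filter, 0.029 at the 60th percentile, 0.18 as averages of group means and 0.050 without the newly transcribed arrays. At the 60th percentile the median was -0.012 in amplified RNA and -0.027 for the difference of effects, which was 0.16 without the filter.

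Counts over all preparations, 0 in the fit reported, were 1 without the filter (Cyp2b13), 10 as averages of group means and 1 without the newly transcribed arrays. Amplified against total RNA gave 13 as averages of group means, where 34.1% of all tested probe sets were higher and 28.4% lower. In newly transcribed RNA, where nothing was tested, 9 probe sets were past 2-fold without the filter, which takes in all 69. The share of all probe sets without the filter is not given here. With the filter 14.3% of all were more than 2-fold higher and 18.5% lower. Without the intensity trend 1 probe set differed in the contralateral effect between preparations.

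Leaving out each array, the medians ran from 0.015 to 0.17 for amplified against total RNA, 0.0070 to 0.18 for the difference of effects, 0.050 to 0.22 over all preparations, 0.047 to 0.13 in amplified RNA, 0.46 to 0.51 in newly transcribed RNA, -0.012 to 0.077 in total RNA and -0.47 to -0.13 for newly transcribed against amplified RNA. The counts ran from 5 to 12 for amplified against total RNA, 1 to 2 for the difference of effects, 0 to 1 over all preparations and 2 to 7 in amplified RNA.

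Arrays of total and amplified RNA with the same replicate number deviated together weakly within a kidney (r = 0.097 and 0.0998) and at -0.070 to 0.042 between kidneys. These values cannot show whether equal numbers mark the same mouse, which the labels do not say. The fits reported took no pairs, so their p-values treat arrays as independent although some may come from the same mouse. With the replicate block as a fixed term 5 probe sets passed in amplified RNA and 7 between newly transcribed and amplified RNA, the other counts being as reported. With kidney and number as a random replicate block 8 passed over all preparations (consensus correlation -0.23, a negative value that narrows the standard error there).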

Other observations

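Some P450 probe sets under the filter differed when all were tested. Cyp2b13 (1449479_at), of the Cyp2b subfamily whose genes answer to phenobarbital in liver, read 3.81 and 4.26 in normal and 4.76 and 4.87 in contralateral total RNA. In amplified RNA it read 3.91 and 4.20 against 5.59 and 5.32, and in newly transcribed RNA 3.87 against 5.22. Every contralateral array lay above every normal one, and the difference over all preparations was 1.14 ± 0.17 (adjusted p = 0.0309, limma without the filter), in amplified RNA 1.40 ± 0.23 (adjusted p = 0.0113). These are dim values, and 3 other Cyp2b genes under the filter did not pass.

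Cyp1a2 (1450715_at), a liver enzyme controlled by the aryl hydrocarbon receptor, read 4.87 and 5.11 in normal and 3.96 and 3.69 in contralateral total RNA, but 4.63 and 3.92 against 4.84 and 5.01 in amplified RNA. The difference of these effects was 1.81 ± 0.37 (adjusted p = 0.0487, limma without the filter). Cyp2c37 (1419094_at) was lower in newly transcribed than in amplified RNA by -0.60 ± 0.16 (adjusted p = 0.0308). The genes were singled out after their values were seen. In newly transcribed RNA, probe sets of Cyp4f15, Cyp2b13, Cyp4f16 and Cyp2b10 under the filter differed by more than 2-fold, by 1.37, 1.35, 1.14 and 1.03.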
